A study of Mus musculus with 12 samples.

Results

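The genes described here are 10 genes that mark the endothelial cells of brain blood vessels and the barrier these cells form: Cldn5, Slc2a1, Mfsd2a, Pecam1, Cdh5, Flt1, Tek, Abcb1a, Slco1a4 and Kdr. They were chosen by symbol, and each was found in the expression table with a single row, 10 of 23354 gene symbols. The data are RNA-seq libraries of cortex from 12 C57BL/6 mice, taken at postnatal day 16 and forming 4 groups of 3. The Dnmt1 control mice (Olig1+/+;Dnmt1flox/flox) and the Dnmt1 conditional knockout (CKO) mice (Olig1cre/+;Dnmt1flox/flox) were littermates, and so were the Dnmt3a control (Olig1+/+;Dnmt3aflox/flox) and the Dnmt3a CKO mice (Olig1cre/+;Dnmt3aflox/flox). Cre was expressed from the Olig1 locus, which the study used to delete the floxed gene in oligodendrocytes, the myelin-forming cells. All mice carried 2 floxed copies of 1 of the DNA methyltransferase genes, and no group carried cre without a floxed target, so loss of the target, cre and the loss of 1 Olig1 copy cannot be told apart.

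Brain capillaries are lined by endothelial cells that are sealed to each other by tight junctions, carry out little vesicular traffic and move nutrients and drugs through dedicated carriers. In these cells Cldn5 (claudin-5) forms the tight junction strands, Cdh5 (VE-cadherin) the adherens junctions, and Pecam1 is an adhesion molecule found along the whole endothelium. Slc2a1 encodes the glucose carrier GLUT1, Mfsd2a a carrier of lysophospholipids that contain docosahexaenoic acid and a brake on transcytosis, Abcb1a the efflux pump P-glycoprotein and Slco1a4 an organic anion carrier. Flt1 and Kdr are receptors of the VEGF family, and Tek (Tie2) is the receptor of the angiopoietins. Dnmt1 and Dnmt3a encode enzymes that methylate cytosine, mostly at CpG dinucleotides, Dnmt1 chiefly when DNA is copied and Dnmt3a also at new sites.

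Levels are given in FPKM (sequenced fragments divided by transcript length and by the size of the library), which can be compared between genes. The targeted genes were looked at before the endothelial genes. Dnmt1 stood at 10.6, 10.2 and 9.78 FPKM in the Dnmt1 control libraries and at 7.26, 9.11 and 9.09 FPKM in the Dnmt1 CKO libraries (log2 fold change -0.27, SE 0.098, adjusted p = 0.286). Dnmt3a stood at 13.6, 14.2 and 15.4 FPKM in the Dnmt3a CKO libraries and at 31.1 and 28.7 FPKM in replicates 1 and 3 of the Dnmt3a control. Dnmt3a was at 16.9 FPKM, close to the CKO libraries, in the library labelled Dnmt3a control replicate 2, which goes against its label. Olig1, the locus that holds cre, was at 49.8 FPKM in that library, with its fellow controls at 48.4 and 44.1 FPKM, and at 30.6 to 38.8 FPKM in the Dnmt3a CKO. In the Dnmt1 line Olig1 fell from 50.9, 46.6 and 42.0 FPKM to 20.6, 21.9 and 18.4 FPKM (-1.19, SE 0.093, adjusted p = 0.0043). The counts over the 10 genes and the values of those that differed most in comparisons with the Dnmt3a control are therefore also given without the library labelled Dnmt3a control replicate 2. Xist, transcribed from the inactive X chromosome, stood at 49.4, 49.4 and 46.2 FPKM in replicate 3 of the Dnmt1 control, the Dnmt3a control and the Dnmt3a CKO, at 1.69 to 1.85 FPKM in the 3 Dnmt1 CKO libraries and at no more than 0.0853 FPKM in the other libraries.

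All 10 genes were expressed in every library. Slc2a1 had the highest mean over the 12 libraries, 34.8 FPKM, followed by Cldn5 at 23.9, Mfsd2a at 15.3 and Slco1a4 at 11.96 FPKM. The next 5 genes lay close together, with Abcb1a at 6.49, Pecam1 at 5.16, Flt1 at 4.996, Kdr at 4.92 and Cdh5 at 4.16 FPKM, and Tek was the least abundant at 2.91 FPKM. Cldn5, Mfsd2a, Slco1a4 and Abcb1a followed each other in this order in 12 of 12 libraries with ranges that did not overlap. Slc2a1 was above Cldn5 in 11 of 12 libraries, the exception being Dnmt1 control replicate 1 (28.5 against 29.9 FPKM). Pecam1 and Flt1 did not differ beyond their spread (Pecam1 was higher in 6 of 12 libraries), nor did Flt1 and Kdr (Flt1 was higher in 7 of 12). Within a group the coefficient of variation of the 10 genes had a median of 4.91% to 7.70%, against 5.01% to 6.11% over all genes tested. Cdh5 varied least in the Dnmt1 line (2.54% among controls and 1.47% among CKO), and Kdr varied most there (11.99% and 14.7%).

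**Figure D1:**
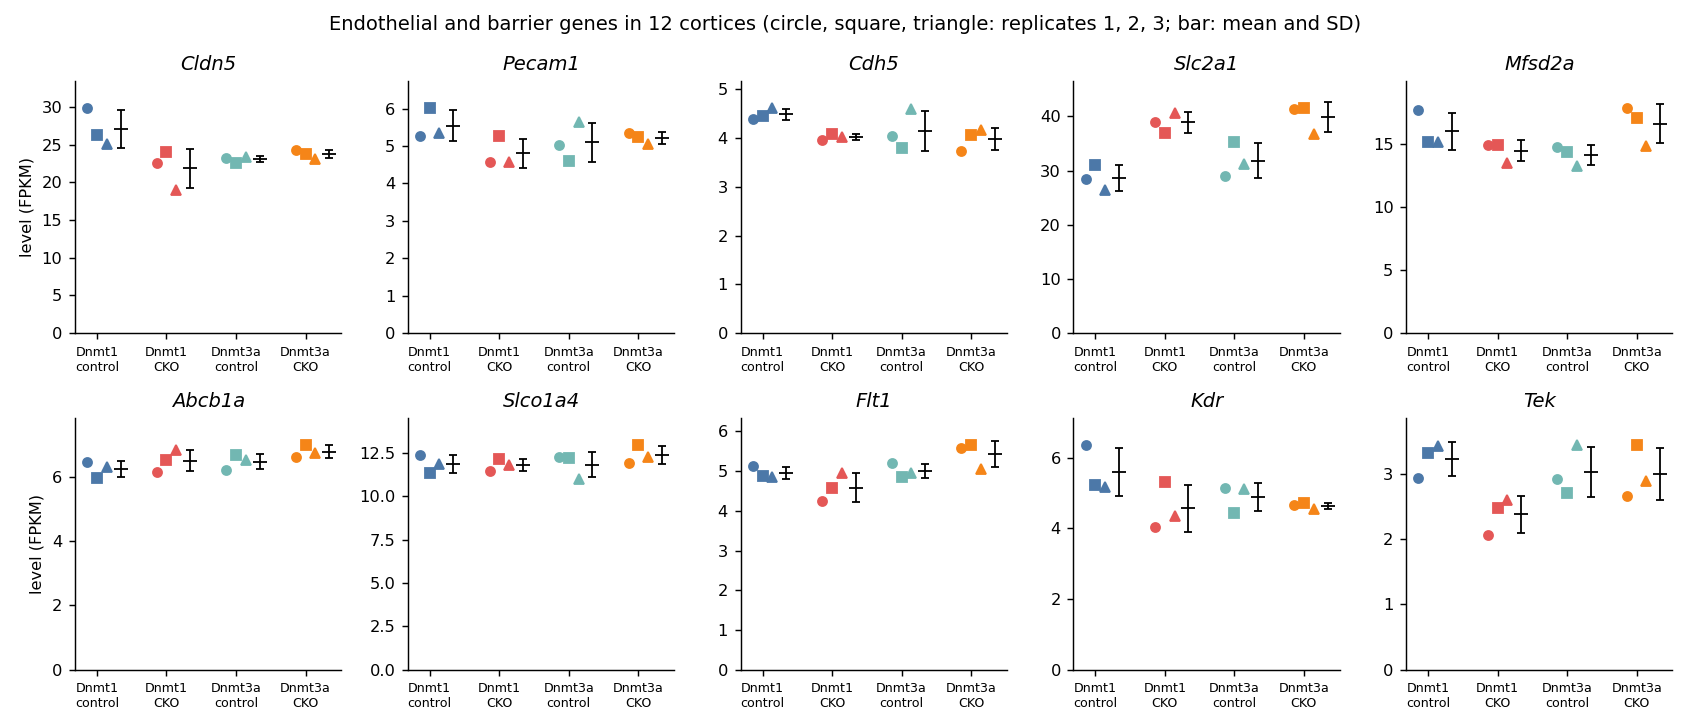
Level (FPKM, axes from 0) of each of the 10 genes in the 12 cortices, with circles, squares and triangles for replicates 1, 2 and 3 and a bar for the mean and SD of each group. Slc2a1 stands at 36.7 FPKM or more in all 6 CKO libraries and at 35.3 FPKM or less in all 6 libraries labelled control. The 35.3 FPKM belongs to the library labelled Dnmt3a control replicate 2, and the other control libraries stand at 31.2 FPKM or less. Cldn5, Cdh5, Pecam1 and Tek sit lower in the Dnmt1 CKO than in the Dnmt1 control.

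Close relatives of these genes were also looked up. Abcb1b, the other mouse gene for P-glycoprotein, ranged from 0.553 to 0.757 FPKM, and Slco1a5 and Slco1a6 were listed at no more than 0.0730 FPKM. Of the 50-base stretches of the Abcb1a transcript, 17.6% also occur in another gene (Abcb1b or Abcb4), so part of the Abcb1a value depends on how shared reads were assigned. For Slco1a4 the share was 1.61%, and for the other 8 genes it was at most 0.998%. Slco1c1, the thyroid hormone carrier of the barrier, had a mean of 21.4 FPKM, Tie1, the partner of Tek, 3.20 FPKM, and the lymphatic VEGF receptor Flt4 0.615 FPKM.

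The genes lie on 6 chromosomes in the mm10 assembly. Cldn5 is a gene of 1 exon on chr16:18776847-18778262 (plus strand), Slc2a1 has 10 exons on chr4:119108711-119137983 (plus strand), Mfsd2a has 14 exons on chr4:122946850-122961188 (minus strand) and Tek has 23 exons on chr4:94739289-94874976 (plus strand). The others are Pecam1 with 16 exons on chr11:106654217-106750628 (minus strand), Cdh5 with 12 on chr8:104101625-104144511 (plus strand), Flt1 with 30 on chr5:147561604-147726011 (minus strand), Kdr with 30 on chr5:75932827-75978458 (minus strand), Abcb1a with 28 on chr5:8660077-8748575 (plus strand) and Slco1a4 with 17 on chr6:141805440-141856199 (minus strand), with exons counted in the longest transcript of the GENCODE annotation. Promoter windows of 300 bases, from 250 before to 50 after the annotated start, were taken from RefSeq for 8 of the 10 genes (GRCm38.p6, the same assembly). The windows of Slc2a1, Mfsd2a, Cldn5 and Tek, on which the comparisons turn, are printed 5′ to 3′ along the transcribed strand. Every CpG dinucleotide, at which DNA methyltransferases mostly act, is in capitals. The deletion was aimed at oligodendrocytes, not at endothelium. Methylation was not measured in these libraries.
Slc2a1 (chr4:119108495-119108794, plus strand): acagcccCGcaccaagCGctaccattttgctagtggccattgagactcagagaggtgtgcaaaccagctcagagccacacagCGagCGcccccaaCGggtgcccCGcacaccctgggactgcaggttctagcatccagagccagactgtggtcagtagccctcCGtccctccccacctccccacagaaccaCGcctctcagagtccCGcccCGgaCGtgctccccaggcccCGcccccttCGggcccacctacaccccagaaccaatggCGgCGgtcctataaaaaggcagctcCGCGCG
Mfsd2a (chr4:122961139-122961438, minus strand): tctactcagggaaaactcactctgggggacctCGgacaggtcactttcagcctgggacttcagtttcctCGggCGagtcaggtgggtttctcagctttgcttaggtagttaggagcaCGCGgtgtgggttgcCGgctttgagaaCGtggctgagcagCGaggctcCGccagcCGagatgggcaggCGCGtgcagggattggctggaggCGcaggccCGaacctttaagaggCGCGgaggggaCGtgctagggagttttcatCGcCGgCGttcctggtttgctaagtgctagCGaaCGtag
Cldn5 (chr16:18776597-18776896, plus strand): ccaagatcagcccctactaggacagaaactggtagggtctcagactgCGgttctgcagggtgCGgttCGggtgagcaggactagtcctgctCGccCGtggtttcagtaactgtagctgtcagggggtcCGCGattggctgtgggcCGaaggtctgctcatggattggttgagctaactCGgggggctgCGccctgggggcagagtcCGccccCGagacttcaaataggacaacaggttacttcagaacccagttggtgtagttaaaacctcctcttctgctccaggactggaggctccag
Tek (chr4:94739039-94739338, plus strand): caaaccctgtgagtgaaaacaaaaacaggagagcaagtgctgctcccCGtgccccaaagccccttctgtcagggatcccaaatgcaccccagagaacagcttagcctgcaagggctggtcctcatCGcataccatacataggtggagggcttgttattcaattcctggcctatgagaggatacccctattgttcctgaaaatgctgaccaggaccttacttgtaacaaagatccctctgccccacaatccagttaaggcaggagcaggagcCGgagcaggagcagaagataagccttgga

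The windows differed widely in CpG content. Flt1 had 29 CpGs, Mfsd2a 22, Kdr 19, Slc2a1 18 and Cldn5 12, all above the median of 7 over 32851 promoter windows. Tek had 3, Abcb1a 2 and Slco1a4 1. The Abcb1a window lies at chr5:8566841-8567140, upstream of the gene's first base in the GENCODE annotation, so the sources differ on its start. The hypoxia-response core ACGTG, searched on both strands, occurred in the windows of 2 of the 8 genes (Slc2a1 and Mfsd2a) and in 19.6% of all windows. TTCCGG, a form of the site bound by ETS factors, occurred in 1 (Kdr) and in 14.9% of all windows, and CTTTGAT, a form of the TCF/LEF site of Wnt signalling, in 0 and in 3.73%. These matches are descriptions of the sequence in a short window.

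The comparison of Dnmt1 CKO with Dnmt1 control asked which transcripts of the whole cortex differed when Dnmt1 was deleted in oligodendrocytes. Slc2a1 was higher in the Dnmt1 CKO, and it was the only gene of the 10 past the threshold of 10% false discovery rate (FDR). Among all rows tested, 3.15% passed, 0.85% higher and 2.3% lower. Tek and Cldn5 had the largest differences in the other direction, without passing. The fold changes of 8 of the 10 genes were below 0, against 58.5% of all rows, and their median was -0.15 on the log2 scale, against -0.02 over all rows. The CKO and control values did not overlap for 5 genes that were lower in the CKO (Cldn5, Mfsd2a, Pecam1, Cdh5 and Tek) and for 1 that was higher (Slc2a1), against 14.4% and 6.38% of all rows (20.8% in either direction). With 3 libraries a group, an exact two-sided permutation test of a single gene cannot give less than p = 0.1.

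Among the carriers, Slc2a1 read 28.5, 31.1 and 26.3 FPKM in the Dnmt1 control and 39.0, 36.9 and 40.7 FPKM in the Dnmt1 CKO. Every CKO library was above every control library, by at least the distance from 31.1 to 36.9 FPKM. The means were 28.6 ± 2.37 and 38.9 ± 1.89 FPKM (SD, n = 3 each), a rise of 0.44 on the log2 scale, or 35.8% (SE 0.069, 95% interval 0.27 to 0.61, adjusted p = 0.041). The call was lost without Dnmt1 control replicate 1, Dnmt1 CKO replicate 1 or Dnmt1 CKO replicate 3 (adjusted p = 0.131, 0.163 and 0.156), although the log2 fold change stayed between 0.38 and 0.50 whichever library was left out. It was also lost when rows were not filtered on level (adjusted p = 0.118), and in 5 of 20 alternative settings in all.

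None of the other carriers passed. Mfsd2a read 17.7, 15.2 and 15.1 FPKM in the control and 14.9, 14.9 and 13.5 FPKM in the CKO (log2 fold change -0.14, adjusted p = 0.462), so the groups were separate but only just, and the difference was -0.07 without Dnmt1 control replicate 1. Abcb1a stood at 6.45, 5.94 and 6.30 FPKM in the control and 6.15, 6.52 and 6.82 FPKM in the CKO, with overlapping groups and a log2 fold change of 0.06 (interval -0.08 to 0.20), or 0.02 to 0.10 with 1 library left out. Slco1a4 had the smallest difference of the 10, with means of 11.8 FPKM in both groups and an interval of -0.11 to 0.11, and its sign turned to +0.02 when libraries were rescaled by median ratio or quantile normalized.

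The junction and adhesion genes were lower in the Dnmt1 CKO in values that did not overlap, but none passed the threshold. Cldn5 read 29.9, 26.2 and 25.1 FPKM in the control and 22.6, 24.0 and 19.0 FPKM in the CKO, a log2 fold change of -0.31, or -19.4% (SE 0.10, adjusted p = 0.254). Cdh5 read 4.39, 4.46 and 4.62 FPKM against 3.96, 4.08 and 4.01 FPKM, a small difference between tight groups (log2 fold change -0.16, SE 0.049, adjusted p = 0.225). Pecam1 read 5.27, 6.01 and 5.34 FPKM against 4.58, 5.26 and 4.58 FPKM, where the highest CKO library nearly reached the lowest control (log2 fold change -0.20, adjusted p = 0.340).

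Of the receptors, Tek differed most. It read 2.94, 3.32 and 3.42 FPKM in the control and 2.06, 2.48 and 2.60 FPKM in the CKO, separate groups with a log2 fold change of -0.43, or -25.6% (SE 0.11, adjusted p = 0.165). Tek passed at an adjusted p of 0.083 with robust variance moderation. Kdr was at 6.36, 5.22 and 5.18 FPKM in the control and 4.03, 5.32 and 4.34 FPKM in the CKO, and the groups overlapped because CKO replicate 2 stood above 2 of the controls (log2 fold change -0.29, adjusted p = 0.380). Flt1 overlapped as well, at 5.12, 4.87 and 4.85 FPKM against 4.24, 4.57 and 4.95 FPKM (log2 fold change -0.11, adjusted p = 0.535), and its difference was -0.06 without Dnmt1 CKO replicate 1. With all 12 libraries in 1 model, which shares the estimate of spread, Cldn5 passed beside Slc2a1 (adjusted p = 0.072 and 0.013), and Tek did not (0.106). Of the 10 genes 4 had an unadjusted p under 0.05 (Slc2a1, Tek, Cdh5 and Cldn5), against 15% of all rows.

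**Figure D2:**
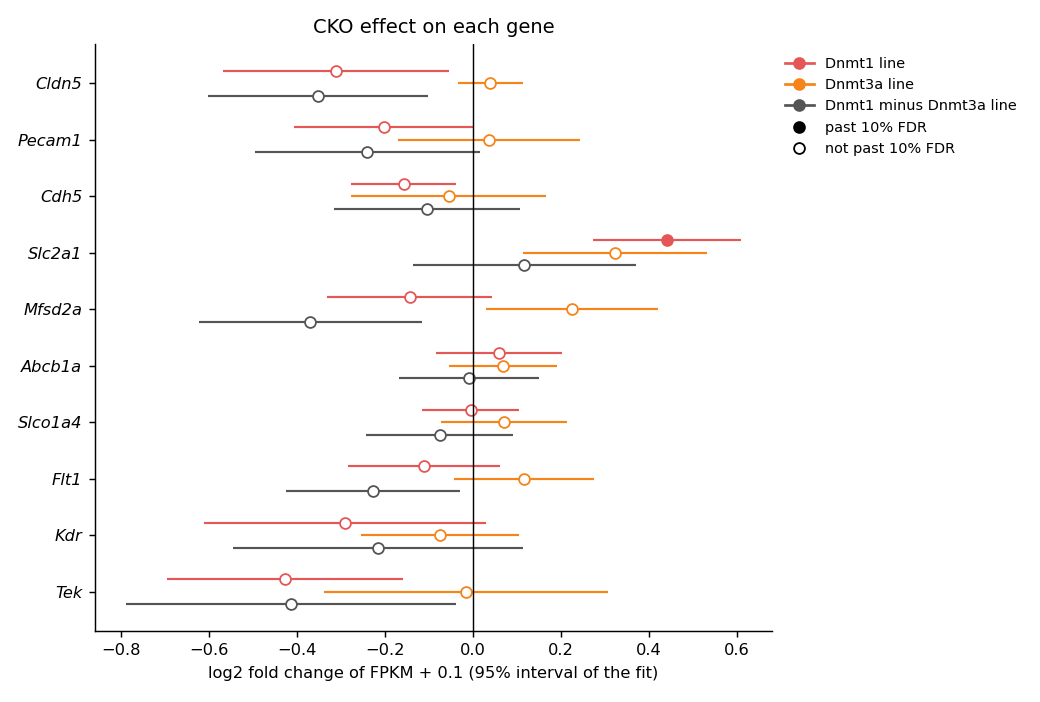
Log2 fold change of FPKM + 0.1 with its 95% interval for each of the 10 genes in the Dnmt1 line (red), in the Dnmt3a line (orange) and for the Dnmt1 minus the Dnmt3a effect (grey), filled where past 10% FDR. Slc2a1 lies above 0 in both lines (0.44 and 0.32) and is the single filled point.

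The comparison of Dnmt3a CKO with Dnmt3a control asked the same question for Dnmt3a. None of the 10 genes passed (0 of 10, against 0.0142% of all rows, which is 2 rows), and 2 had an unadjusted p under 0.05 with limma, against 7.35% of all rows. These were Slc2a1 and Mfsd2a, both with higher values in the CKO and with groups that did not overlap (7.33% of all rows were separate in that direction and 5.43% in the other, which held 0 of the 10). The median of the 10 fold changes was 0.05, against 0.01 over all rows. With the library labelled Dnmt3a control replicate 2 left out, the median was 0.06, 1 gene had an unadjusted p under 0.05 (Slc2a1, against 6.89% of all rows), Slc2a1, Mfsd2a and Abcb1a were separate and higher (13.7% of all rows) and Kdr was separate and lower (9.45%).

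Slc2a1 read 29.0, 35.3 and 31.2 FPKM in the Dnmt3a control and 41.3, 41.5 and 36.7 FPKM in the Dnmt3a CKO. The difference was 0.32 on the log2 scale, or 25.2% (SE 0.085, unadjusted limma p = 0.00902, adjusted p = 0.657, exact permutation p = 0.1). Without the library labelled Dnmt3a control replicate 2, which has the highest of the control values, it was 0.40 (adjusted p = 0.705). Mfsd2a read 14.8, 14.4 and 13.2 FPKM in the control and 17.8, 17.1 and 14.9 FPKM in the CKO, a difference of 0.23 (SE 0.080, adjusted p = 0.657), and of 0.24 without that library (adjusted p = 0.718). The lowest CKO value of Mfsd2a, 14.9 FPKM, was barely above the highest control value of 14.8 FPKM.

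The remaining 8 genes had log2 fold changes between -0.07 and 0.12 in the Dnmt3a line, with overlapping groups when all 6 libraries were used. Cldn5 was nearly constant, at 23.2, 22.6 and 23.4 FPKM in the control and 24.3, 23.8 and 23.1 FPKM in the CKO, and its interval ran from -0.03 to 0.11. Tek read 2.92, 2.70 and 3.44 FPKM against 2.66, 3.44 and 2.89 FPKM, with a wide interval from -0.34 to 0.31. Flt1 read 5.21, 4.85 and 4.97 FPKM against 5.59, 5.67 and 5.06 FPKM (log2 fold change 0.12, adjusted p = 0.719). Without the library labelled Dnmt3a control replicate 2, Tek went from -0.01 to -0.09, Cldn5 from 0.04 to 0.03, Flt1 from 0.12 to 0.09, Pecam1 from 0.04 to -0.03, Cdh5 from -0.05 to -0.11 and Kdr from -0.07 to -0.14, and 0 of the 10 genes passed.

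The 2 lines were set against each other in a model of all 12 libraries. None of the 10 genes passed this test of the difference between CKO effects (0 of 10, against 2.13% of all rows), and 4 had an unadjusted p under 0.05 with limma, against 10.6%. The differences nearest to the threshold were those of Mfsd2a (-0.37, SE 0.12, adjusted p = 0.223) and Cldn5 (-0.35, SE 0.11, adjusted p = 0.247), both lower in the Dnmt1 line, followed by Flt1 (-0.23, adjusted p = 0.386) and Tek (-0.41, adjusted p = 0.410). Mfsd2a was past the threshold without Dnmt3a CKO replicate 3 (-0.45, adjusted p = 0.086). For Slc2a1 the effects in the lines differed by 0.12, with an interval from -0.14 to 0.37 (adjusted p = 0.783), and without the library labelled Dnmt3a control replicate 2 by 0.04. The fold changes of 9 of the 10 genes were below 0 in this comparison, against 58.8% of all rows, and their median was -0.22, against -0.03. When the library labelled Dnmt3a control replicate 2 was left out, the differences were -0.38 for Mfsd2a, -0.34 for Cldn5, -0.20 for Flt1 and -0.34 for Tek (adjusted p = 0.306, 0.386, 0.549 and 0.601), with a median of -0.16, and 2 genes had an unadjusted p under 0.05 with limma (Mfsd2a and Cldn5), against 9.87% of all rows.

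The controls of the lines are Cre-negative littermates that differ in the floxed gene and in family. Between them 0 of the 10 genes passed, as did 0% of all rows, and 1 had an unadjusted p under 0.05 with limma, against 8.18%. That gene was Cldn5, lower in the Dnmt3a control by 0.23 on the log2 scale (SE 0.081, adjusted p = 0.499), and by 0.21 without the library labelled Dnmt3a control replicate 2. The groups of controls did not overlap for Cldn5, Mfsd2a and Kdr, all lower in the Dnmt3a control, against 8.59% of all rows separate in that direction, and 0 of the 10 were separate and higher, against 3.98%. The fold changes of 7 of the 10 were below 0, against 59.7% of all rows. When the library labelled Dnmt3a control replicate 2 was left out, the same 3 genes were separate and lower, against 13.5% of all rows, 0 were separate and higher, against 6.72%, and 0 of the 10 had an unadjusted p under 0.05 with limma, against 6.21%. For markers of other cells 0 genes passed between these controls in every list, and only directions and overlap are given here. All 10 oligodendrocyte genes were separate and higher in the Dnmt3a control (median 0.35), and below 0 were 10 of 10 basement membrane genes (6 of them separate), 8 of 8 leptomeningeal genes (median -0.28) and 5 of 5 blood genes (median -1.02). Their part in the values of the 10 genes was not tested. These control libraries also enter the comparisons above. For Cldn5 the Dnmt1 CKO libraries, at 19.0 to 24.0 FPKM, stood beside Dnmt3a control libraries at 22.6 to 23.4 FPKM, and these ranges overlapped.

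Cortex RNA mixes many cell types, and in such samples fewer endothelial cells and less of a transcript per endothelial cell cannot be told apart. Levels were therefore also expressed relative to the mean log2 level of Pecam1 and Cdh5, which mark endothelium in general, in the same library. This reference was itself lower in the Dnmt1 CKO by 0.18, with separate groups, and by 0.01 in the Dnmt3a CKO. On this scale Slc2a1 was at 2.54, 2.56 and 2.38 in the Dnmt1 control and at 3.17, 2.97 and 3.22 in the Dnmt1 CKO, a difference of 0.62. Since the reference was lower, 40.5% of all rows were separate and higher on this scale in the Dnmt1 CKO, and 2.03% separate and lower. Abcb1a and Slco1a4, whose raw levels overlapped, were among the former, at 0.24 and 0.18, close to the shift of the reference. Tek stayed lower and separate, by 0.25, whereas Cldn5 overlapped (-0.13), as did Mfsd2a (0.04), Kdr (-0.11) and Flt1 (0.07).

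In the Dnmt3a line Slc2a1 was 0.33 higher on this scale, with overlapping groups, because the library labelled Dnmt3a control replicate 2 was at 3.05 and its fellow controls at 2.66 and 2.59. The mean of 27 other endothelial genes, taken in place of Pecam1 and Cdh5, was itself 0.12 lower in the Dnmt1 CKO, with overlapping groups. Against it the Dnmt1 CKO values were 0.56 higher for Slc2a1, 0.18 for Abcb1a and 0.12 for Slco1a4, all still separate, as were 33.4% of all rows in that direction, and 0.30 lower for Tek, with overlapping groups. Cldn5 was 0.19 lower and separate against that reference (3.31% of all rows). The exact permutation test of 3 against 3 libraries cannot pass below 0.1 for any of these values.

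**Figure D3:**
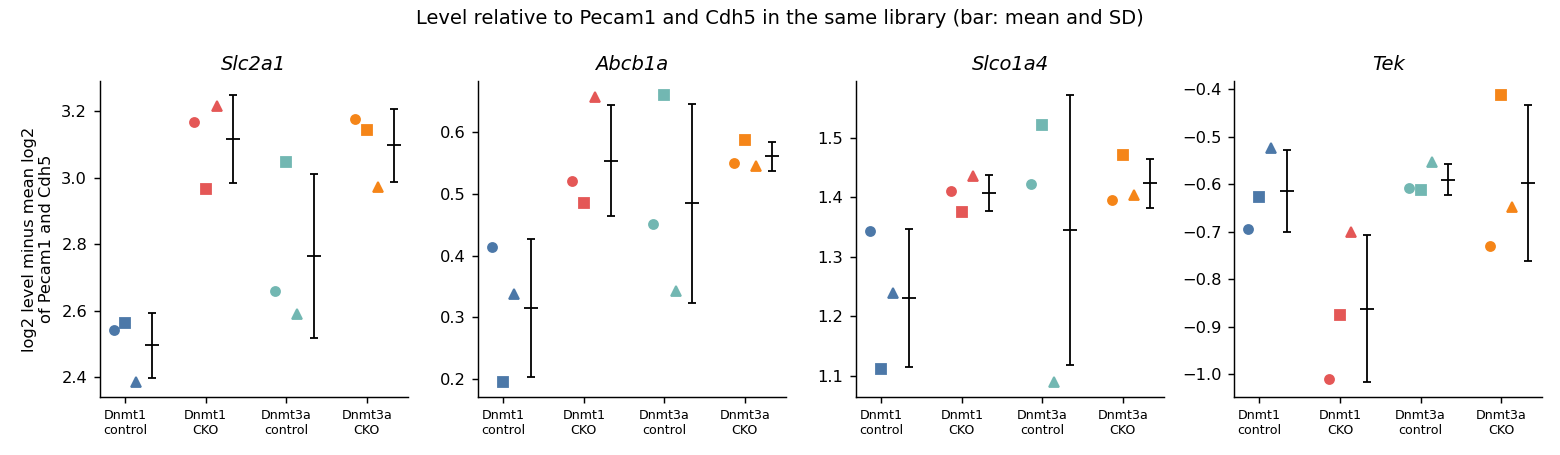
Log2 level of Slc2a1, Abcb1a, Slco1a4 and Tek minus the mean log2 level of Pecam1 and Cdh5 in the same library, with the mean and SD of each group (axes do not start at 0). Slc2a1 runs from 2.97 to 3.22 in the Dnmt1 CKO and from 2.38 to 2.56 in the Dnmt1 control, while Tek runs from -1.01 to -0.70 against -0.69 to -0.52.

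Other genes of brain vessels were described in lists by role. A place in a list does not mean that only vessels make the transcript, and the part of other cells in the list values was not tested. In 9 lists of endothelial, basement membrane and pericyte genes 148 genes were tested, of which 9 passed in the Dnmt1 line, or 6.08% against 3.15% of all rows, 7 of them lower in the CKO. With the 6 smooth muscle genes given further on, 10 of 154 passed (6.49%), 8 of them lower. These totals rested on single libraries. Of the 10 genes only Apln still passed without Dnmt1 CKO replicate 1, when 1.41% of all rows passed. Only Apln and Rgs5 did so without Dnmt1 control replicate 2 (1.46% of all rows). Of 28 further pan-endothelial genes, 27 were tested, and in the Dnmt1 CKO 0 rose and 4 fell past the threshold (0.85% and 2.3% of all rows): Itm2a, a membrane protein (-0.27, adjusted p = 0.027), Podxl (podocalyxin, -0.31, adjusted p = 0.033), Nos3 (endothelial nitric oxide synthase, -0.37, adjusted p = 0.055) and Cd93 (-0.54, adjusted p = 0.089). Itm2a stood at 30.8, 30.5 and 29.8 FPKM in the control and at 25.2, 26.3 and 24.3 FPKM in the CKO. Podxl stood at 5.41, 5.65 and 5.42 FPKM against 4.43, 4.41 and 4.42 FPKM. The list had a median log2 fold change of -0.16, 18 of 27 genes below 0 (58.5% of all rows), 13 with lower, separate values (14.4% of all rows) and 3 with higher, separate values (6.38%). Between 0 and 3 of the 27 passed when 1 library was left out, and over the 20 alternative settings Itm2a lost its call in 3, Podxl in 5, Nos3 in 9 and Cd93 in 10. Itm2a lost its call without Dnmt1 control replicate 2 (adjusted p = 0.126) or Dnmt1 CKO replicate 1 (0.121). Podxl lost it without Dnmt1 control replicate 2 (0.157) or Dnmt1 CKO replicate 1, 2 or 3 (0.163, 0.130 and 0.149), and Nos3 and Cd93 lost it whichever library was left out (0.133 to 0.210 and 0.114 to 0.243). Icam2 had the largest difference of the list (-0.59, adjusted p = 0.194), and S1pr1, its most abundant gene at 31.7 FPKM, had -0.18 (adjusted p = 0.192).

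Of 11 junction genes tested, 0 passed in the Dnmt1 line, with a median of -0.09. The largest differences were those of Cgnl1 (paracingulin, -0.41, adjusted p = 0.119) and Jam2 (-0.32, adjusted p = 0.119), and Tjp1 (ZO-1), the most abundant at 15.6 FPKM, had -0.12 (adjusted p = 0.196). Of 22 barrier transporters, 1 rose and 0 fell (0.85% and 2.3% of all rows), with a median of -0.03. The gene that rose was Abcc4, an efflux pump, at 1.89, 1.52 and 1.56 FPKM in the control and 2.60, 2.21 and 2.47 FPKM in the CKO (0.53, adjusted p = 0.0999). The call of Abcc4 was lost in 11 of 20 alternative settings, and with each library left out (adjusted p = 0.149 to 0.301) except Dnmt1 control replicate 1 (0.079). Slc38a5, a glutamine carrier, had the largest difference, from 2.38, 2.44 and 1.75 FPKM to 1.22, 1.32 and 0.672 FPKM (-1.002, SE 0.26, adjusted p = 0.173), and Slco1c1 had -0.22 (adjusted p = 0.167). Slc39a10, the most abundant of these at 45.6 FPKM, had -0.05 (adjusted p = 0.641).

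Of 18 vascular ligands and receptors, 0 rose and 1 fell (0.85% and 2.3% of all rows). Apln (apelin), a peptide made by sprouting endothelium and other cells, fell from 6.13, 6.61 and 7.37 FPKM to 3.30, 3.94 and 3.497 FPKM (-0.89, SE 0.10, adjusted p = 0.012), and it passed in each of the 20 alternative settings. Its receptor gene Aplnr stood at 1.89, 1.38 and 1.83 FPKM against 0.946, 1.06 and 0.591 FPKM, with separate groups (-0.92, SE 0.23, adjusted p = 0.148). Vegfb, the most abundant of the list at 18.3 FPKM, had 0.03. Of 20 genes of Wnt signalling and barrier induction, 0 rose and 1 fell: Tspan12, a co-receptor component of the norrin pathway, at 7.07, 7.31 and 7.18 FPKM against 6.33, 5.87 and 5.75 FPKM (-0.26, adjusted p = 0.086). The call of Tspan12 was lost in 12 of the 20 settings, among them whichever library was left out (adjusted p = 0.121 to 0.272). Hhip (-0.70, adjusted p = 0.102), a hedgehog inhibitor, and Nkd1 (-0.45, adjusted p = 0.204), a Wnt inhibitor, did not pass, and Ctnnb1 (beta-catenin), the most abundant at 180.1 FPKM, had -0.02.

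Of 19 endothelial transcription factors, 0 passed, with Ets1 at -0.42 (adjusted p = 0.200), Gata2 at 0.33 (adjusted p = 0.140) and Epas1, the most abundant at 23.2 FPKM, at 0.03. The list of permeability and activation genes had the highest median of the vascular lists, 0.22 over 9 genes tested. Of these 1 rose and 0 fell (0.85% and 2.3% of all rows). Angptl4 rose from 1.15, 1.58 and 1.51 FPKM to 2.49, 2.13 and 2.61 FPKM (0.74, SE 0.14, adjusted p = 0.080), a call lost in 10 of 20 settings, among them whichever library was left out (0.116 to 0.266). Lcn2 read 0.256, 0.551 and 0.202 FPKM against 1.17, 0.717 and 1.14 FPKM (1.40, SE 0.33, adjusted p = 0.136). Its mean over the 12 libraries, 0.523 FPKM, reached the filter of 0.5 FPKM only through the CKO libraries. Cav2, the most abundant at 14.3 FPKM, had 0.07. Sele, Selp and Timp1 were too low to be tested. Of 10 genes of the vascular basement membrane 0 passed, with a median of -0.15, Hspg2 (perlecan) at -0.27, Lama4 at -0.20 and Agrn (agrin), the most abundant at 28.6 FPKM, at 0.00.

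**Figure D4:**
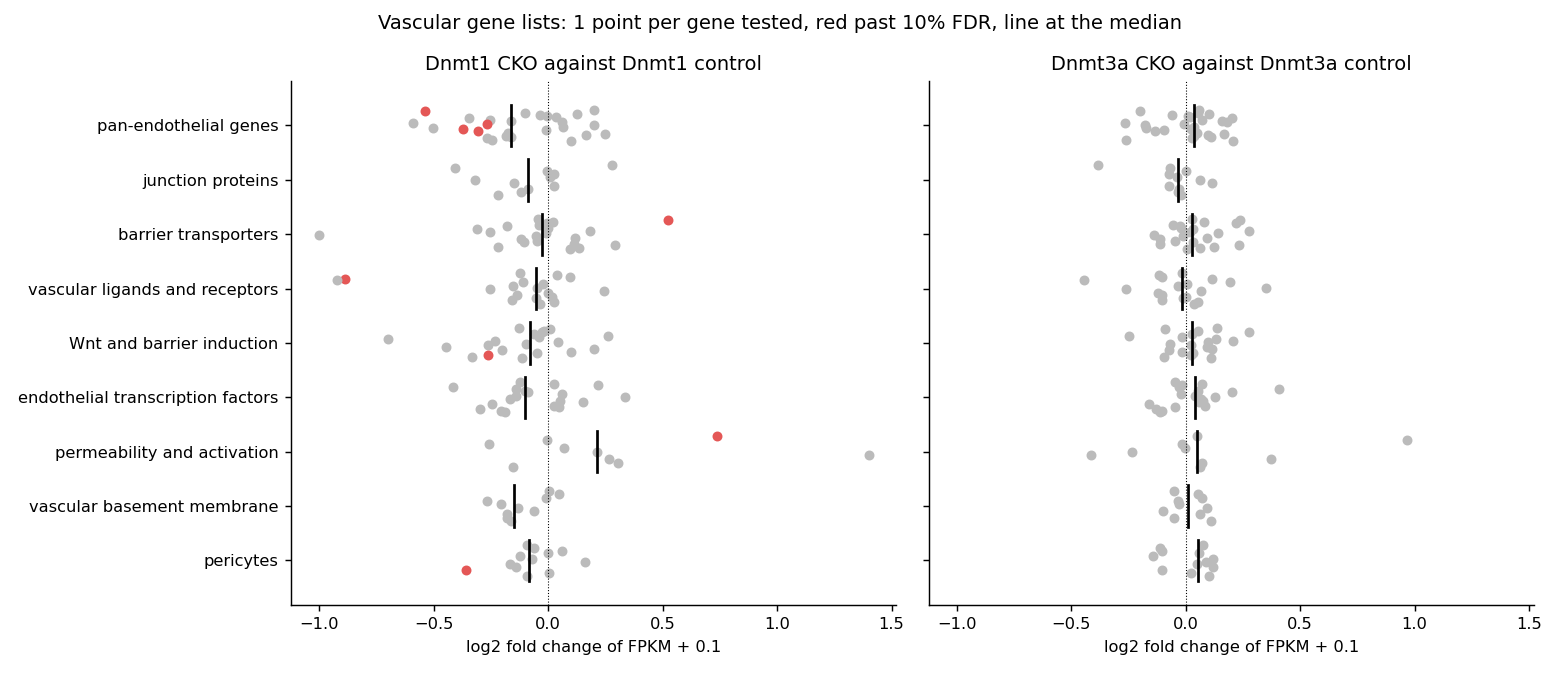
Log2 fold changes of FPKM + 0.1 for the tested genes of 9 vascular lists in the Dnmt1 line (left) and the Dnmt3a line (right), 1 point per gene, red where past 10% FDR, with a line at each median. In the Dnmt1 line 4 pan-endothelial genes, Apln, Tspan12 and Rgs5 are red below 0 and Abcc4 and Angptl4 are red above 0, and no point is red in the Dnmt3a line.

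In the Dnmt3a line 0 genes passed in each of these lists, and the medians lay between -0.03 and 0.05. The largest difference was that of Aqp1, a water channel that the choroid plexus also makes, at 0.97 with overlapping groups (adjusted p = 0.784). Next came Aplnr at -0.45, Lcn2 at -0.41, Fli1 at 0.41, Cgn at -0.39 and Flt4 at 0.35 (adjusted p = 0.657 each). Without the library labelled Dnmt3a control replicate 2, 0 genes passed as well, the medians lay between -0.09 and 0.08, and the differences were 1.28 for Aqp1, -0.58 for Aplnr, -0.32 for Lcn2, 0.24 for Fli1, -0.46 for Cgn and 0.28 for Flt4. The order above did not hold there, as Cd93 (-0.35), among others, exceeded Lcn2, Fli1 and Flt4 in size. In the test of the difference between the lines 7 of 148 vascular genes tested passed, or 4.73% against 2.13% of all rows, 6 lower in the Dnmt1 line (1.83% of all rows) and 1 higher (0.298%): Esam, Slc9a3r2, Jam2, Apln, Tspan12, Hhip and Lcn2. Lcn2, the 1 that was higher, averaged 0.523 FPKM and reached the filter of 0.5 FPKM only through the Dnmt1 CKO libraries. Without the library labelled Dnmt3a control replicate 2, 2 of the 148 passed (Apln and Esam), or 1.35% against 1.69% of all rows.

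Markers of the cells around the vessels were followed in the same libraries. In the Dnmt1 line 2.3% of all rows passed lower and 0.85% higher. Of 12 pericyte genes tested, 1 fell in the Dnmt1 CKO, Rgs5, the most abundant, from 33.4, 30.8 and 30.6 FPKM to 24.7, 25.7 and 23.5 FPKM (-0.36, SE 0.049, adjusted p = 0.027), a call lost in 2 of 20 settings, one of them without Dnmt1 CKO replicate 1 (0.121). The summed level of the pericyte list was 84.7 ± 2.79 FPKM in the control and 76.6 ± 5.38 FPKM in the CKO, overlapping through CKO replicate 2. Of 6 smooth muscle genes 1 fell, Acta2 (-0.47, adjusted p = 0.098), a call lost in 13 of 20 settings, among them whichever library was left out (0.116 to 0.292). The list sum was 10.6 ± 0.274 against 8.90 ± 0.147 FPKM. The pan-endothelial sum was 221.7 ± 10.2 against 210.5 ± 4.83 FPKM, and the sum of the 10 genes described here, to which Slc2a1 adds most, was 114 ± 5.36 against 114 ± 2.07 FPKM. In the Dnmt3a line that sum was 109.5 ± 1.90 in the control and 122 ± 5.42 FPKM in the CKO.

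Genes of oligodendrocytes differed far more than the vascular genes. All 10 oligodendrocyte genes fell in the Dnmt1 CKO, with a median of -1.99, and their sum went from 2121 ± 161.6 to 629 ± 49.0 FPKM, Mbp being the most abundant. Of 8 genes in the progenitor list 4 fell (Sox10, Gpr17, Olig2 and Pdgfra). The list is not specific to progenitors, as the study marked oligodendrocytes by Olig2 and describes Sox10 as a key regulator of myelination. Among all rows 2.3% passed lower and 0.85% higher in this comparison. Among 10 astrocyte genes Gfap rose (0.45, adjusted p = 0.0065) and Kcnj10, a potassium channel gene, fell (-0.52, adjusted p = 0.0088). In that list 5 of 10 genes were below 0 (58.5% of all rows), with a median of -0.01. Which cells the differences came from was not tested. Among 8 microglial genes C1qa rose (0.34, adjusted p = 0.013), and Trem2 only just passed (0.30, adjusted p = 0.099). Of the neuronal list 0 of 10 genes passed, and Snap25, its most abundant gene at 547 FPKM, had 0.01. In the Dnmt3a CKO 0 genes passed in any of these lists, the oligodendrocyte sum was 2842 ± 212 against 2697 ± 244 FPKM and 0 of 10 astrocyte genes were below 0 (46.6% of all rows), or 2 of 10 without the library labelled Dnmt3a control replicate 2. The astrocyte list had a median of 0.08 and a sum of 1016 ± 38.9 against 939 ± 11.7 FPKM. GLUT1 is also made by astrocytes and other cells, and the part of any of these lists in the values of Slc2a1 and the other 9 genes was not tested.

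Genes of blood and of tissue at the edge of the cortex varied between libraries. Of the blood list 5 genes were tested, and 0 passed in any comparison. Its sum was 22.2 ± 5.89 FPKM in the Dnmt1 control, 12.02 ± 3.39 FPKM in the Dnmt1 CKO (17.3 FPKM or more in each control and 15.9 FPKM or less in each CKO library), 10.2 ± 2.94 FPKM in the Dnmt3a control and 15.7 ± 5.04 FPKM in the Dnmt3a CKO. Its most abundant gene, Hbb-b1, read 9.61, 10.9 and 7.33 FPKM in the Dnmt1 control and 7.28, 4.53 and 4.75 FPKM in the Dnmt1 CKO, where the groups nearly touched. The 8 leptomeningeal genes had a median of -0.16 in the Dnmt1 line with 0 past the threshold, and Igf2, the most abundant at 29.5 FPKM, had -0.09. The choroid plexus sum ran from 4.38 to 425 FPKM over the 12 libraries, led by Ttr, with overlapping groups in both lines. The part of these tissues in the endothelial values was not tested.

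**Figure D5:**
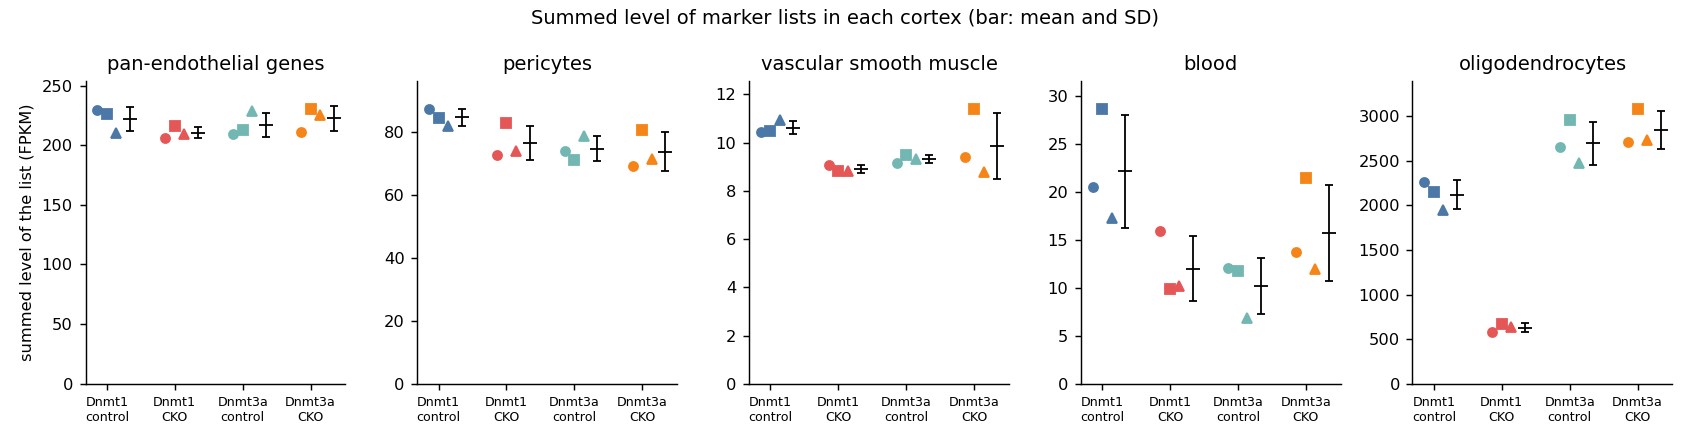
Summed level (FPKM, axes from 0) of the pan-endothelial, pericyte, vascular smooth muscle, blood and oligodendrocyte lists in each of the 12 cortices, with the mean and SD of each group. The oligodendrocyte sum drops from 2121 to 629 FPKM in the Dnmt1 CKO, the smooth muscle sum is lower there in separate groups (8.90 against 10.6 FPKM), and the pan-endothelial sums overlap.

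The 10 genes did not vary as a single unit. Over the 12 libraries, which share the differences between groups, the correlation of each gene with the mean of the other 9 ran from -0.37 for Slc2a1 and 0.08 for Abcb1a to 0.64 for Flt1. Ranked by r, the most alike were Cldn5 and Kdr (r = 0.80, rho = 0.86) and Pecam1 and Tek (r = 0.69, rho = 0.61). By rho, Cldn5 and Pecam1 came second (r = 0.63, rho = 0.83). The least alike were Slc2a1 and Cdh5 (r = -0.74, rho = -0.65). After the group means were taken off, Kdr followed the other 9 best (r = 0.72), and Slc2a1 was at -0.19. Among the rows outside the list, those most like the mean of the 10 standardised genes over the 12 libraries were Asrgl1 (r = 0.97, rho = 0.94), Aplp2 (0.94), Fads2 (0.93), Acadl (0.93), Cxcl14 (0.91), Aplp1 (0.91), Cd63 (0.90) and Alkbh7 (0.90). After the group means were taken off they were H2-Ke2 (r = 0.99, rho = 0.98), Pald1 (0.96), Gm7334 (0.95), Psmg4 (0.95), P2ry1 (0.95), Gnai2 (0.95), Unc5b (0.95) and Scrn1 (0.94). Without the 2 libraries farthest from the median of the standardised mean, Asrgl1 stayed at 0.96 and H2-Ke2 at 0.99. These were picked as the highest of 14115 rows over 12 libraries, and the coefficients are given as descriptions.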

How the data were processed

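Cortex RNA (about 250 ng) of 12 mice was sequenced as polyA-selected libraries by the authors, who aligned reads to mm10 with Tophat and deposited FPKM per gene from Cufflinks (versions not given in the sources used here). The number of reads per library is not given in the sources used here, so no counting interval was computed, and it is not stated whether the deposited FPKM were scaled further between libraries.

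Of 23850 rows 302 exact duplicates were removed, leaving 23548, of which 14115 averaged 0.5 FPKM or more and were tested. Sums ran from 342274 to 417856 FPKM per library. limma 3.58.1 in R 4.3.3 (eBayes with trend) was fitted to log2(FPKM + 0.1) with Benjamini-Hochberg adjustment over all rows at 10% FDR. A fold change is on that scale and understates the change of low genes. Each CKO was set against its littermate controls in 6 libraries, and the difference between the lines and between the controls was taken from 1 model of 12 libraries. The study gives 3 biological replicates per genotype, and no 2 libraries of the same group shared more than 0.902% of values. The text names the 10 genes, the targets and Olig1, close paralogs, the 8 rows most like the 10 genes and, for the lists, genes drawn from those past 10% FDR, the most abundant gene and the 2 with the largest differences per line, not all of which are printed. Members and lists were chosen with earlier results of these data known.

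On simulated data 175 of 200 changed genes were recovered in the Dnmt1 comparison (14115 genes), 46 of 67 at a log2 change of 0.5, and 11 unchanged genes were called. For the difference between the lines 165 of 200 were recovered, 37 of 67 at 0.5, and 13 unchanged genes were called. The draw of changed genes left out rows of low level or wide spread, and the noise was independent between libraries. The smallest change, 0.5, was above that of any of the 10 genes, so recovery of smaller changes was not measured. Alternatives covered the pseudocount, the filter on low values, the variance model, the scaling, duplicate symbols, the replicate block, a Xist covariate, 5% FDR and leaving out each library.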

Additional observations from a re-analysis of the deposited data

Results flagged for a closer look

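None of the 10 genes was picked out by the test of the difference between the lines. Among 148 other genes tested in the vascular lists it picked out 7 (4.73%, against 2.13% of all rows). Their CKO effect in the Dnmt1 line differed from that in the Dnmt3a line at 10% FDR with limma, and 6 of them were lower in the Dnmt1 line. The part of other cells of the cortex in these values was not tested. Apln differed by -0.999 on the log2 scale (adjusted p = 0.019, -0.89 in the Dnmt1 line and 0.11 in the Dnmt3a line). Esam, an endothelial adhesion molecule, differed by -0.32 (adjusted p = 0.035, -0.16 and 0.16). Lcn2 differed by 1.81 (adjusted p = 0.064, 1.40 and -0.41). Its mean of 0.523 FPKM over the 12 libraries reached the filter of 0.5 FPKM only through the Dnmt1 CKO libraries, so its call is no support for a difference. Slc9a3r2 differed by -0.27 (adjusted p = 0.072, -0.16 and 0.11), Hhip by -0.83 (adjusted p = 0.085, -0.70 and 0.13), Jam2 by -0.38 (adjusted p = 0.089, -0.32 and 0.06) and Tspan12 by -0.28 (adjusted p = 0.097, -0.26 and 0.02). Without the library labelled Dnmt3a control replicate 2, Apln (adjusted p = 0.062) and Esam (0.076) still passed, and Slc9a3r2 (0.123), Lcn2 (0.136), Hhip (0.141), Jam2 (0.175) and Tspan12 (0.185) did not, which left 2 of the 148 (1.35%, against 1.69% of all rows). Over all alternative settings Tspan12 lost its call in 20 of 25, Slc9a3r2 and Jam2 in 15 each, Hhip in 14, Esam in 3 and Apln in 0, and Lcn2 in 11 of 24. Over these settings the difference ran from 0.73 to 2.16 for Lcn2 and from -0.94 to -0.47 for Hhip. Groups of 3 libraries were too small to be searched for outlying samples.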

How the results depend on the processing

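In the Dnmt1 line 0 of the 10 genes passed with no filter on low values, and 2 passed with robust variance moderation or with all 12 libraries in 1 model. Leaving out 1 library gave 0 to 1. Deviations of same-numbered libraries from their group means correlated at -0.064, 0.036 and -0.027 in the Dnmt1 line and 0.019, -0.079 and -0.00069 in the Dnmt3a line. These values cannot show which mice came from the same litter, so a pairing by replicate number is neither shown nor excluded. With the replicate block 0 of the 10 genes passed in the Dnmt1 line (Slc2a1 adjusted p = 0.211) and 1 in the difference between the lines (Mfsd2a, adjusted p = 0.083), and the block changed no other call among them. Of the 148 other vascular genes 1 passed with the block in the Dnmt1 line, Apln (adjusted p = 0.069), against 9 without it, and Itm2a (0.107), Rgs5 (0.112), Abcc4 (0.169), Podxl (0.202), Nos3 (0.221), Cd93 (0.238), Angptl4 (0.245) and Tspan12 (0.276) did not. Leaving out 1 library gave 0 to 1 in that difference, with a median of the 10 genes of -0.265 to -0.153. Between controls that median ran from -0.159 to -0.0411, the latter without the library labelled Dnmt3a control replicate 2.

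Some values near 0 turned sign. Slco1a4 was 0.021 in the Dnmt1 line when rescaled by median ratio, 0.0244 when quantile normalized and -0.0364 to 0.0266 with 1 library left out. Between controls it was 0.0202 when rescaled, 0.0123 with quantile normalization and -0.0382 to 0.0459 with 1 library left out, and Flt1 ran from -0.0118 to 0.0406. For Abcb1a the difference between the lines was 0.0257 when rescaled, 0.0193 with quantile normalization and -0.044 to 0.0293 with 1 library left out. In the Dnmt3a line, leaving out 1 library gave -0.0315 to 0.114 for Pecam1, -0.114 to 0.022 for Cdh5 and -0.115 to 0.0803 for Tek.

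Over all rows, 444 passed in the Dnmt1 line, against 162 with the replicate block, 263 at 5% FDR, 199 to 341 with 1 library left out, 537 when rescaled by median ratio, 545 with robust variance moderation, 551 with quantile normalization and 609 with all 12 libraries in 1 model. In the Dnmt3a line 2 passed, against 20 with no filter and 1 in 6 other settings and 2 to 5 with 1 library left out, and between controls 0, against 3 with no filter and 0 to 1 with 1 library left out. The causes of these changes were not tested.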
